A study of Mus musculus with 8 samples.

Results

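The genes described here encode axonemal dynein arms, the parts that hold the arms on the microtubule doublets, and the factors that assemble the arms in the cytoplasm. The members were chosen by name: 42 gene symbols were listed by their role, and all 42 were found as protein-coding genes among the 54532 genes of the deposited table. They comprise 9 outer arm genes, 13 inner arm genes, 5 docking and attachment genes, 5 genes of the axonemal ruler and the nexin-dynein regulatory complex, and 10 assembly factors. No measured value was used to choose them, although results of these data were known at the time. They lie on 14 chromosomes, 7 of them on chromosome 11, and 0 are sex-linked.

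RNA was measured in whole testes of 4 Spdya fl/fl mice (control, or Sync-Spdya fl/fl) and 4 Spdya fl/fl;Ddx4-CreERT2 mice (cKO, or Sync-Spdya cKO), with 1 library per mouse. Spdya encodes Speedy A, an activator of cyclin-dependent kinase 2 needed in meiosis, and the study asked what follows when pachytene spermatocytes lack it. All mice were juvenile males of the C57BL/6J background, carried 2 floxed Spdya alleles, were synchronized by an inhibitor of retinoic acid synthesis followed by retinoic acid (RA), and received tamoxifen at RA day 7.5 and 8.5 as the labels give it. Testes were taken on RA day 11.5, the mid-late pachytene stage. The Cre was inserted at Ddx4 and acts in germ cells only, tamoxifen removes exon 2 of Spdya, and the control littermates carried no Cre, so Cre itself differs between the groups together with the deletion. Spdya over the whole gene had 20.8, 21.0, 23.8 and 19.7 FPKM in the control libraries and 30.5, 22.2, 26.1 and 17.7 FPKM in the cKO libraries. The groups overlapped, and a level over the whole gene does not check the loss of 1 exon.

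Dynein arms are the motors of motile cilia and of the sperm tail. Outer and inner rows of arms walk on the neighbouring doublet and bend the axoneme, and each arm is built from heavy chains that carry the motor, with intermediate and light chains. The heavy chains are folded and put together with their partners in the cytoplasm by dedicated assembly factors before transport into the axoneme, where docking proteins, the Ccdc39-Ccdc40 ruler and the regulatory complex set their places. In the testis the sperm tail grows in spermatids, and many of its genes are already transcribed in pachytene spermatocytes.

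Upstream sequences are shown for 6 members whose cKO values all lay below the control values, to show which of them hold the letters of a site known from ciliary genes. Of 8 such members with a RefSeq start, 5 hold these letters in the 100 bases before it. Dnah6 and Ccdc65 hold GTTGCTA, and Dnah10, Gas8 and Drc1 hold GTTGCC. The other 3 (Dnah2, Dnah12 and Dnah17) hold neither there, while Dnah12 holds GTTGCTA in the wider 300 bases around its RefSeq start. How often the 100 bases before other genes hold these letters was not counted. Dnah12 and Dnah17 are not printed because their RefSeq starts lie 1720 and 1415 bases from the starts in the deposited table. Each sequence is the 100 bases before the RefSeq start on GRCm38.p6, read in the direction of the gene, and each printed start lies within 20 bases of the start that the deposited table gives. Capitals mark GTTGCC or GTTGCTA on either strand, the core letters of the X-box bound by RFX transcription factors.
Dnah6, chr6:73221632-73221731, minus strand: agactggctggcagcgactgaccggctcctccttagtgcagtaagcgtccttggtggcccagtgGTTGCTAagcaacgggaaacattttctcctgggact
Dnah10, chr5:124724985-124725084, plus strand: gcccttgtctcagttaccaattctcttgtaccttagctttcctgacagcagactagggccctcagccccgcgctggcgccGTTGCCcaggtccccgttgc
Ccdc65, chr15:98708094-98708193, plus strand: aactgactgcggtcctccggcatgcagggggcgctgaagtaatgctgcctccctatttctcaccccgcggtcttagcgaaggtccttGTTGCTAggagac
Gas8, chr8:123518735-123518834, plus strand: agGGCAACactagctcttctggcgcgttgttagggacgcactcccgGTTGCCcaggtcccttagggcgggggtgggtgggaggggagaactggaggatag
Drc1, chr5:30281293-30281392, plus strand: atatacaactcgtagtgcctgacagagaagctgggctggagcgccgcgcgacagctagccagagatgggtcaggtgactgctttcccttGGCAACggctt
Dnah2, chr11:69549109-69549208, minus strand: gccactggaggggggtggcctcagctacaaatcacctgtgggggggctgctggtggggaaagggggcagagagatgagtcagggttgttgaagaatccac

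RefSeq windows of 300 bases around the start were given for 34 of the 42 members. GTTGCC or GTTGCTA stood on either strand in 21 of their 35 windows (60%) and in 15.37% of all 32851 windows of that length. The longer run, GTTGCTA, was in 17 of the 35 windows (48.57%) against 3.659% of all windows, and GTTGCC in 11 (31.43%) against 12.51%. These letters were chosen after the windows had been seen, and the runs share GTTGC but cannot match at the same base of 1 strand. TAACNG, a core of the MYB site, was in 14 windows (40%) against 23.3% of all. The cyclic AMP response element, TGACGTCA, was in 2 of the windows, those of Dnah6 and Wdr63, against 1.79% of all. The X-box letters were found in members whose groups separated (Dnah6, Drc1) and equally in the starts of members at a fraction of 1 FPKM (Dnah5, Dnaic2), so a match is a description of the window only.

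Levels are given as FPKM, fragments relative to gene length and to a scaled library size, which the authors computed and which can be compared between genes because length is divided out. In the control testes 19 members had a mean above 10 FPKM, 16 lay from 1 to 10 FPKM, and 7 were at or below 1 FPKM. The assembly factor Zmynd10 was the highest with a control mean of 82.0 ± 16.0 FPKM (SD, n = 4), followed by the outer arm heavy chain Dnah8 with 51.8 ± 9.95 FPKM and the assembly factor Dnaaf1 with 48.0 ± 9.09 FPKM. The spreads of these 3 overlapped in part: Dnah8 and Dnaaf1 did not differ beyond their SD. At the other end, the heavy chain Dnah3 was covered by only 2 to 13 fragments per library.

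**Figure D1:**
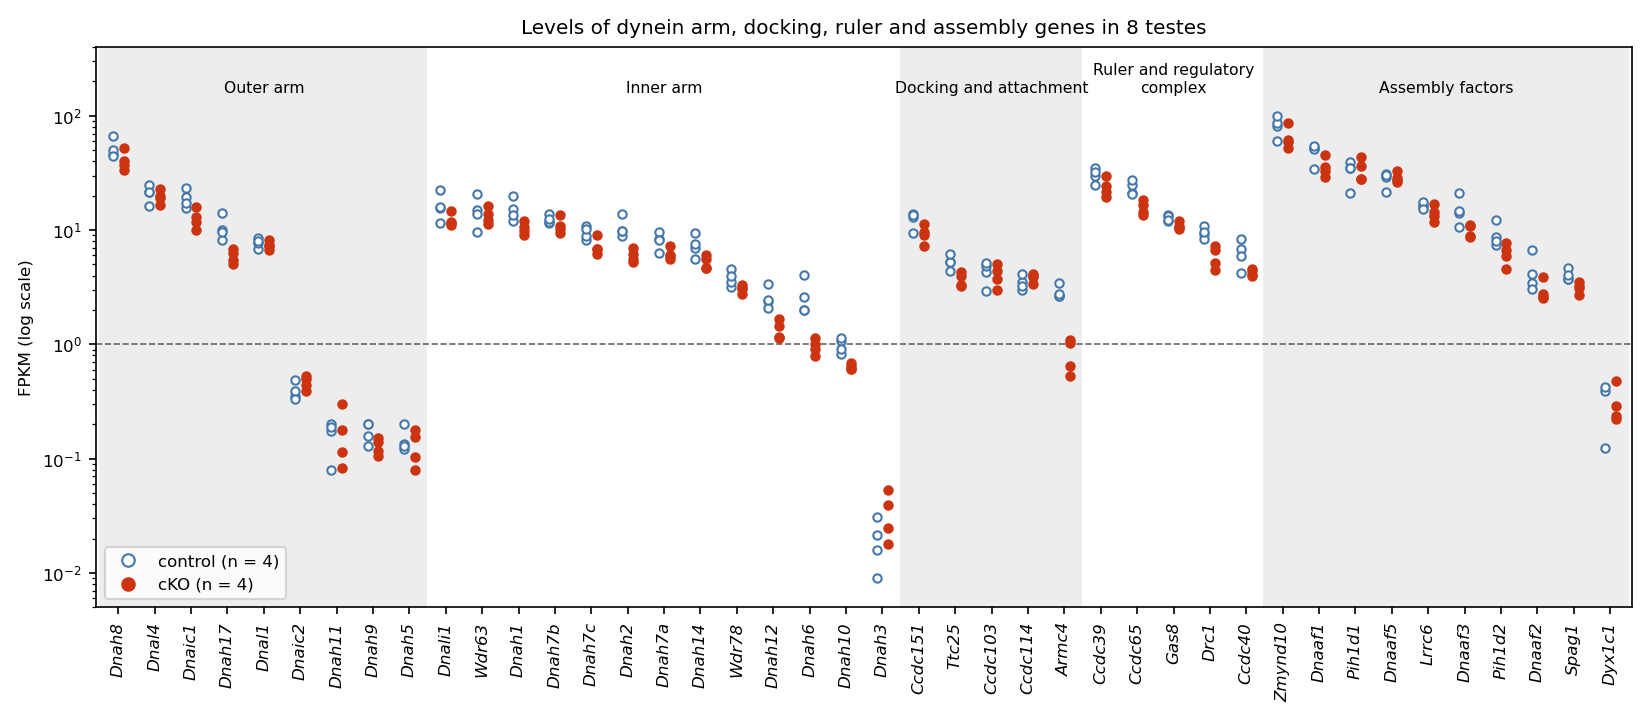
FPKM (log axis) of the 42 members in each of the 4 control (open blue) and 4 cKO (filled red) libraries, ordered within each role by mean level, with a dashed line at 1 FPKM. The members run from below 0.1 FPKM (Dnah3) to 82.0 FPKM (control mean of Zmynd10), and Dyx1c1 in control 1, at 0, is not drawn.

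Most members were lower in the cKO testes, by a modest amount, and none passed the test across all genes. The test was limma on log2(FPKM + 0.1), on which a fold change understates that of low genes, run on the 12141 protein-coding genes that averaged more than 1 FPKM in each group. This filter kept 33 of the 42 members. A call needed an adjusted p (Benjamini-Hochberg) below 0.05 together with a log2 fold change beyond 1 in either direction, and 0 of the 33 were called (0.0165% of all genes tested), and 0 had an adjusted p below 0.05 alone (0.0165% of all). At an unadjusted p below 0.05, 19 of the 33 members were lower in the cKO and 0 were higher, where 5.0% of all genes tested were lower and 5.89% higher. In 8 members every cKO value lay below every control value (2.59% of all genes), and in 0 every value lay above (3.64% of all). A separation of 4 against 4 gives the smallest two-sided exact permutation p for a gene, 0.0286. The fold change was below 0 in 30 of the 33 members and in 48.0% of all genes, and the median log2 fold change was -0.38 over the members and 0.01 over all genes tested.

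Single libraries and their weights bore on these counts. Without cKO 4, 11 members were at an unadjusted p below 0.05 (2.675% of all genes lower there), and without control 1, 20 members were (5.899%). Separated members numbered 16 without control 1 (5.001% of all) and 18 without cKO 1 (7.806% of all), against 8 with all libraries. When limma weighted the libraries by their spread, 15 of the 33 members had an adjusted p below 0.05, as did 3.739% of all genes, with a weight of 0.161 for control 1 and 4.45 for cKO 3.

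**Figure D2:**
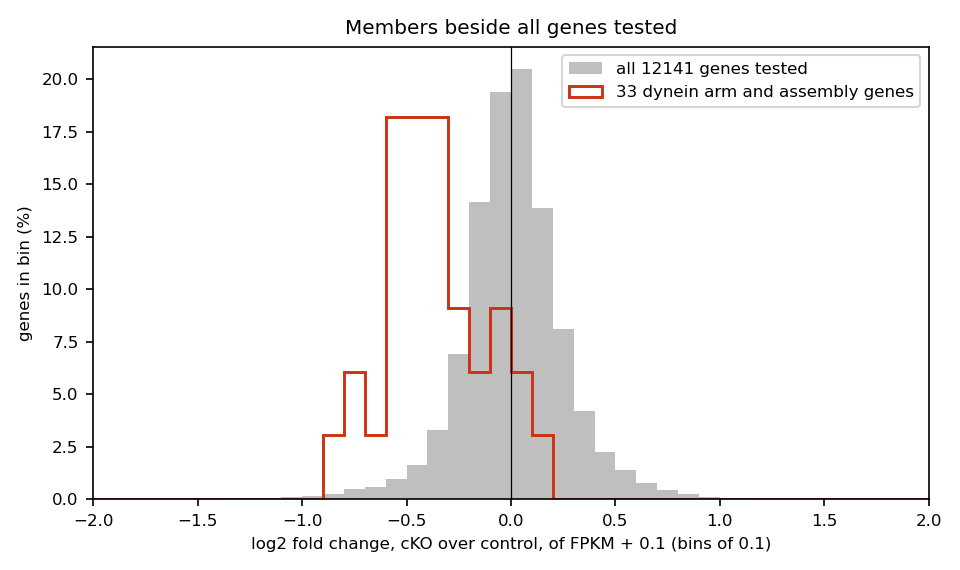
Share of genes (%) in bins of 0.1 of the log2 fold change, cKO over control, for the 33 members tested (red outline) and all 12141 genes tested (grey). The members sit to the left of all genes, with a median of -0.38 against 0.01, and 30 of 33 lie below 0.

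The 9 members outside the filter were tested in the same way among the 15937 protein-coding genes that averaged more than 0.1 FPKM across the 8 libraries, which left out only Dnah3. Of the 41 members tested there, 22 were lower at an unadjusted p below 0.05 and 0 higher (4.86% and 6.23% of all genes), 11 were separated with the cKO lower (2.55% of all) and 0 with the cKO higher (3.78% of all), the fold change was below 0 in 36 (46.4% of all), and 0 had an adjusted p below 0.05 (0.0125% of all). The filter bears on the result because Dnah6 and Armc4 fell under it through their cKO mean alone, at 0.966 and 0.821 FPKM. Dnah10 was under it in both groups, at 0.981 FPKM in the control and 0.637 FPKM in the cKO testes. The 3 members nearest above it had a lower group mean of 1.35 FPKM (Dnah12), 2.94 FPKM (Dnaaf2) and 3.06 FPKM (Wdr78).

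**Figure D3:**
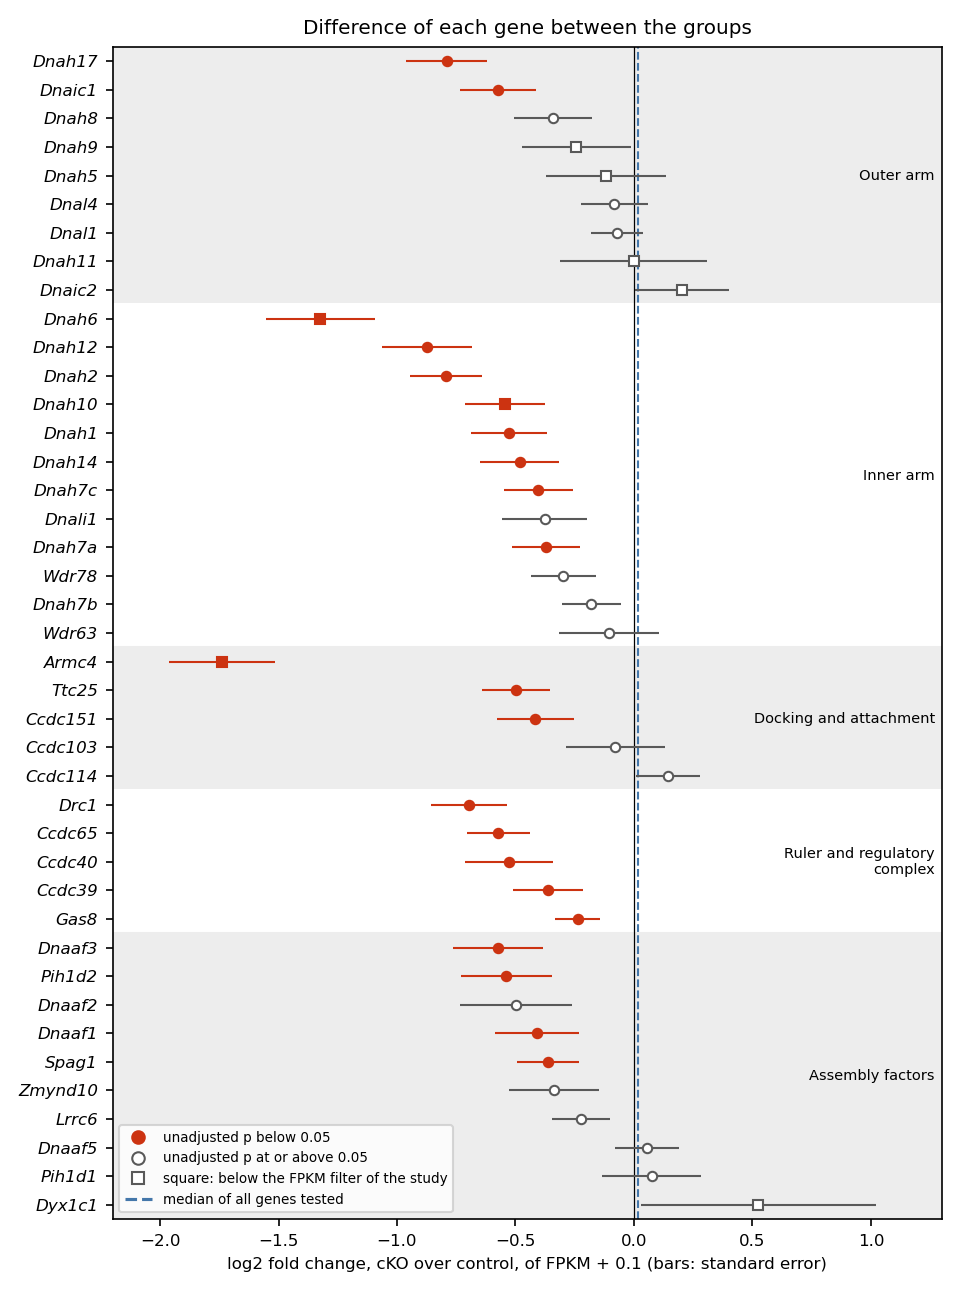
Log2 fold change (cKO over control, of FPKM + 0.1) with its standard error for the 41 members above 0.1 FPKM, by role, filled where the unadjusted limma p was below 0.05 and square where the member lay below the filter of 1 FPKM. The bars of Armc4 and Dnah6 lie farthest to the left at -1.74 and -1.32, and 36 of 41 members lie below 0.

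The docking genes held the member with the largest difference. Armc4 (ENSMUSG00000061802, chr18:7088233-7297901) encodes an armadillo repeat protein of the outer arm docking complex. It had 3.47, 2.67, 2.65 and 2.76 FPKM in the control libraries and 1.08, 1.03, 0.529 and 0.644 FPKM in the cKO libraries. All 4 cKO values lay far below all control values, with means of 2.88 ± 0.392 and 0.821 ± 0.276 FPKM (SD, n = 4), 3.52-fold lower in the cKO. The log2 fold change was -1.74 (SE 0.23), with an adjusted p of 0.0576 in limma over the 15937 genes. Its adjusted p was 0.033 with a pseudocount of 1, 0.0411 with voom on the fragments and 0.0176 with weighted libraries, and over all alternatives it ran from 0.0176 to 0.266, the highest without cKO 4. These values rest on 31 to 168 fragments per library, and no window of 100 bases of its exons occurred in another gene.

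The other docking and attachment genes differed less, and not all in 1 direction. Ttc25, a tetratricopeptide protein of the docking complex, had 5.26, 5.21, 6.18 and 4.37 FPKM in the control and 4.27, 3.93, 3.33 and 3.23 FPKM in the cKO libraries. The groups did not overlap, although the lowest control and the highest cKO were close, and the log2 fold change was -0.50 (SE 0.14, adjusted p = 0.26). Ccdc151, a coiled-coil docking protein, had 13.8, 12.9, 13.4 and 9.52 FPKM against 11.4, 9.64, 9.03 and 7.19 FPKM, so control 4 lay among the cKO values (log2 fold change -0.42, adjusted p = 0.406). Ccdc114, which forms the core of the docking complex in airway cilia, had 3.47 ± 0.492 FPKM in the control and 3.83 ± 0.328 FPKM in the cKO testes, and Ccdc103, an attachment factor, had 4.30 ± 0.973 and 4.06 ± 0.892 FPKM, both with overlapping groups. The ratio of Armc4 to Ttc25 within a library ran from 0.4286 to 0.6588 in the control and from 0.1589 to 0.2611 in the cKO testes without overlap. It is made of the same values, in which Armc4 had the largest difference, so it is not a further result. The ratios of Dnah8 to Dnah17, Dnah17 to Dnah5 and Dnah2 to Dnah10 overlapped between the groups. How often ratios of other gene pairs separate was not counted.

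**Figure D4:**
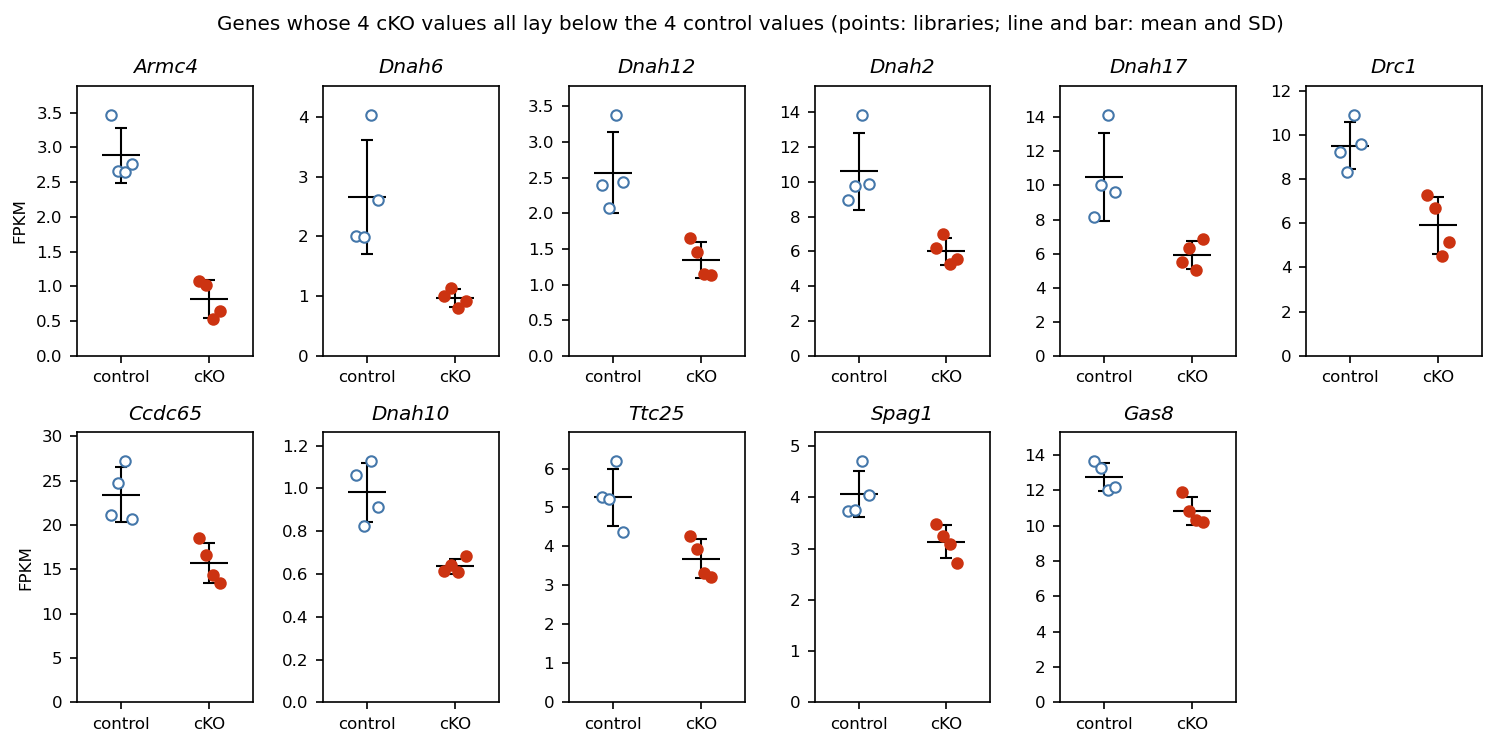
FPKM in the 4 control (open blue) and 4 cKO (filled red) libraries of the 11 members whose groups did not overlap, with mean and SD, each axis starting at 0. Armc4 has the widest gap, 2.88 against 0.821 FPKM on average, and Gas8 a narrow one, 12.8 against 10.8 FPKM.

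All 10 inner arm genes in the filter had a fold change below 0 (48.0% of all genes tested), with a median log2 fold change of -0.39. Of these 10, 6 had an unadjusted p below 0.05, where 5.0% of all genes tested were lower. Dnah6, a heavy chain of the single-headed inner arms, had 2.01, 1.99, 4.03 and 2.60 FPKM in the control libraries and 1.00, 1.14, 0.797 and 0.920 FPKM in the cKO libraries. Control 3 stood above the other controls, yet every control lay above every cKO value. The means were 2.66 ± 0.959 and 0.966 ± 0.146 FPKM, 2.75-fold lower in the cKO, with a log2 fold change of -1.32 (SE 0.23, adjusted p = 0.108 in limma over the 15937 genes). With weighted libraries its adjusted p was 0.0237. The ratio of Dnah6 to Dnah1, an inner arm heavy chain at a higher level, was 0.1296 to 0.2024 in the control and 0.0817 to 0.1075 in the cKO testes without overlap. This ratio uses the same separated values of Dnah6 and is not a further result.

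Dnah12, also a heavy chain of the single-headed kind, had 2.39, 2.07, 3.38 and 2.43 FPKM in the control and 1.65, 1.46, 1.16 and 1.13 FPKM in the cKO libraries. The groups were separate, with a log2 fold change of -0.87 (SE 0.19, adjusted p = 0.15). Dnah2, a heavy chain of the double-headed inner arm, had 8.94, 9.77, 13.8 and 9.86 FPKM against 6.19, 7.03, 5.30 and 5.56 FPKM. Its groups were separate too, 1.76-fold apart, and its log2 fold change of -0.79 (SE 0.15) had the smallest adjusted p of the 33 members in the filter, 0.127. Its partner heavy chain Dnah10 had 1.06, 0.823, 1.13 and 0.914 FPKM against 0.612, 0.642, 0.608 and 0.685 FPKM. The 4 cKO values of Dnah10 were close to each other and all below the controls (log2 fold change -0.55, SE 0.17, adjusted p = 0.284 over the 15937 genes).

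The intermediate and light chains that go with these heavy chains overlapped between the groups. Dnali1, the inner arm light chain, had the highest mean of the inner arm genes over all libraries, within the spread of Wdr63. Within the cKO testes the mean of Wdr63, 13.5 FPKM, was above that of Dnali1, 12.3 FPKM. Dnali1 had 11.6, 15.5, 22.3 and 15.9 FPKM in the control and 14.8, 11.5, 11.1 and 11.9 FPKM in the cKO libraries. Control 1 lay within the cKO range and control 3 far above it (log2 fold change -0.38, adjusted p = 0.502). Wdr78, an intermediate chain of the double-headed arm, had 3.20, 3.54, 4.54 and 3.98 FPKM against 3.09, 3.06, 3.33 and 2.78 FPKM, with 1 cKO value above the lowest control. Its partner Wdr63 had 14.9 ± 4.62 and 13.5 ± 2.22 FPKM (log2 fold change -0.11, adjusted p = 0.892), and its control 1, at 9.68 FPKM, was the lowest of the 8 libraries.

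Among the remaining single-headed heavy chains, Dnah1 had 11.98, 15.4, 19.9 and 13.5 FPKM in the control and 12.1, 10.7, 9.75 and 8.99 FPKM in the cKO libraries. Control 1 and cKO 1 met in value, and the log2 fold change was -0.53 (SE 0.16, adjusted p = 0.287). Dnah14, whose place among the arms is less well known, had 5.54, 7.02, 9.47 and 7.57 FPKM against 6.01, 5.54, 4.63 and 4.64 FPKM, again with control 1 inside the cKO range (log2 fold change -0.48, adjusted p = 0.341). Dnah3 was at 0.0193 ± 0.00923 FPKM in the control and 0.0340 ± 0.0158 FPKM in the cKO testes, too few fragments to compare.

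Dnah7a, Dnah7b and Dnah7c are related copies of 1 inner arm heavy chain on chromosome 1, and how the authors counted reads that fit more than 1 copy is not given in the sources used here. Of the windows of 100 bases in their exons, 19.13% (Dnah7a), 14.35% (Dnah7b) and 23.91% (Dnah7c) occurred in another gene, in each case another of the 3. Their values are therefore not fully separate. Dnah7a had 6.36, 8.42, 9.55 and 8.22 FPKM in the control and 7.32, 6.004, 5.61 and 5.99 FPKM in the cKO libraries (log2 fold change -0.37, adjusted p = 0.392). Dnah7b had 11.5, 11.8, 13.8 and 12.5 FPKM against 13.5, 10.8, 10.3 and 9.44 FPKM (log2 fold change -0.18, adjusted p = 0.654). Dnah7c had 8.14, 8.88, 10.9 and 10.3 FPKM against 9.10, 6.81, 6.84 and 6.17 FPKM (log2 fold change -0.40, adjusted p = 0.359). In all 3 copies cKO 1 lay within the control range and the other cKO values below it.

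Among the outer arm heavy chains, those of the sperm tail were the abundant ones. Dnah8 and Dnah17, the pair used in the sperm tail, had control means of 51.8 and 10.49 FPKM, while Dnah5, Dnah9 and Dnah11, the heavy chains of airway cilia, had 0.146, 0.172 and 0.162 FPKM. The ratio of Dnah8 to Dnah5 was 232.5 to 539.3 in the control and 190.7 to 656.4 in the cKO libraries, with overlap. Dnah17 had 8.14, 10.1, 14.1 and 9.63 FPKM in the control and 5.50, 6.36, 5.03 and 6.87 FPKM in the cKO libraries. All cKO values lay below all controls, 1.77-fold lower on average, with a log2 fold change of -0.79 (SE 0.17, adjusted p = 0.15). Dnah8 had 46.5, 50.2, 66.2 and 44.1 FPKM against 52.0, 40.6, 37.2 and 33.8 FPKM. Only cKO 1 of Dnah8 lay within the control range (log2 fold change -0.34, SE 0.17, adjusted p = 0.512). The difference in fold change between Dnah17 and Dnah8 was not tested.

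Dnaic1, an intermediate chain of the outer arm, had 15.7, 19.4, 23.5 and 17.2 FPKM in the control and 15.8, 13.2, 11.8 and 10.1 FPKM in the cKO libraries. Again cKO 1 alone reached the lowest control, and the log2 fold change was -0.57 (SE 0.16, adjusted p = 0.26). The light chains Dnal4 and Dnal1 lay near their control levels, at 21.0 ± 3.41 against 19.7 ± 2.52 FPKM and 7.78 ± 0.685 against 7.40 ± 0.591 FPKM. Dnaic2, the other intermediate chain, was listed at 0.334 to 0.484 FPKM in the control and 0.390 to 0.529 FPKM in the cKO libraries, from 25 to 41 fragments. Its partner Dnaic1 was thus 32.5 to 59.9 times as high in the control and 19.1 to 36.0 times as high in the cKO testes, with overlap. Of the 5 outer arm genes in the filter all had a fold change below 0 (48.0% of all genes tested), with a median of -0.34 on the log2 scale. Over the 9 genes above 0.1 FPKM the median was -0.12.

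The ruler and regulatory complex genes were the role in which every member was lower at an unadjusted p below 0.05. This held for 5 of 5 (5.0% of all genes tested), with a median log2 fold change of -0.53. Whether this role differed from the others was not tested. Drc1, a structural subunit of the regulatory complex, had 9.22, 8.33, 10.9 and 9.58 FPKM in the control and 7.29, 6.70, 4.51 and 5.14 FPKM in the cKO libraries. The groups did not overlap, with means of 9.50 ± 1.07 and 5.91 ± 1.30 FPKM and a log2 fold change of -0.70 (SE 0.16, adjusted p = 0.173). Its partner Ccdc65 had 21.1, 24.8, 27.2 and 20.7 FPKM against 18.5, 16.6, 14.4 and 13.5 FPKM. These groups were separate as well (log2 fold change -0.57, SE 0.13, adjusted p = 0.175). Gas8, a further subunit of the complex, had 13.6, 13.2, 12.02 and 12.2 FPKM against 11.9, 10.8, 10.3 and 10.2 FPKM, separate by a small margin (log2 fold change -0.24, SE 0.09, adjusted p = 0.412).

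Ccdc39 and Ccdc40 form the ruler that sets the spacing of inner arms and regulatory complexes along the doublet. Ccdc39 had 24.8, 30.0, 34.8 and 32.1 FPKM in the control and 29.4, 24.3, 21.6 and 19.6 FPKM in the cKO libraries. Control 1 and cKO 1 lay in each other's range (log2 fold change -0.36, adjusted p = 0.429), and 11.88% of its windows also lie in Ttc14 on the other strand. Ccdc40 had 4.24, 6.78, 8.35 and 5.90 FPKM against 4.35, 4.60, 4.01 and 3.98 FPKM. Control 1 alone lay among the cKO values (log2 fold change -0.53, SE 0.18, adjusted p = 0.348).

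Of the 9 assembly factors in the filter 7 had a fold change below 0 (48.0% of all genes tested), and the median log2 fold change was -0.36. Of these 7, 4 had an unadjusted p below 0.05, where 5.0% of all genes tested were lower. Spag1, a co-chaperone, had 3.73, 3.76, 4.70 and 4.04 FPKM in the control and 3.49, 3.24, 3.09 and 2.72 FPKM in the cKO libraries. It was the assembly factor whose groups did not overlap (log2 fold change -0.36, SE 0.13, adjusted p = 0.348). Dnaaf3 had 21.2, 14.2, 14.6 and 10.54 FPKM against 10.9, 10.98, 8.75 and 8.90 FPKM, with control 1 high and control 4 within the cKO range (log2 fold change -0.57, SE 0.19, adjusted p = 0.33). Pih1d2, a relative of the PIH-domain assembly factors, had 12.4, 7.47, 8.64 and 7.96 FPKM against 7.66, 6.75, 5.88 and 4.61 FPKM. There too control 1 stood above the other controls (log2 fold change -0.54, adjusted p = 0.356).

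Dnaaf1, a leucine-rich repeat assembly factor, had 52.0, 51.2, 54.2 and 34.5 FPKM in the control and 45.7, 35.8, 33.2 and 29.3 FPKM in the cKO libraries. Control 4 stood below the other controls and inside the cKO range (log2 fold change -0.41, SE 0.18, adjusted p = 0.449), and 17.82% of the windows of this gene also lie in Taf1c on the other strand. Zmynd10, which brings heavy chains to the chaperones, had 81.7, 86.6, 99.0 and 60.5 FPKM against 87.1, 61.6, 59.0 and 52.6 FPKM, with overlapping groups (log2 fold change -0.34, adjusted p = 0.573). Dnaaf2 had 6.64, 3.42, 4.15 and 3.06 FPKM against 3.88, 2.53, 2.59 and 2.75 FPKM (log2 fold change -0.50, adjusted p = 0.495), but 64.57% of its windows occur in overlapping genes, so its level is uncertain. Without control 1 its log2 fold change was -0.27. Lrrc6, a partner of Zmynd10, had 16.4 ± 0.985 and 14.1 ± 2.26 FPKM (log2 fold change -0.22, adjusted p = 0.567).

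The assembly factors with a fold change above 0 had overlapping groups, and the fold changes of Pih1d1 and Dnaaf5 fell below 0 when control 4 or cKO 1 was left out. Pih1d1, which is part of a general co-chaperone complex found in most cells, had 32.5 ± 7.81 FPKM in the control and 33.9 ± 7.51 FPKM in the cKO testes (log2 fold change 0.07, adjusted p = 0.927). Dnaaf5 had 28.1 ± 4.39 and 29.0 ± 2.98 FPKM (log2 fold change 0.06, adjusted p = 0.915). Dyx1c1 was covered by 0 to 16 fragments, with 0 in control 1, a count that allows up to 0.116 FPKM, and 86.73% of its windows lie in other genes, so no comparison is made.

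The 15 heavy chains are long, 12009 to 19980 bases, while the other members have 1890 to 11167 bases. The 9 heavy chains in the filter had a median log2 fold change of -0.48, the 24 other members -0.36, and the 1069 genes of 10000 bases or more that are no member -0.03. Of these 1069 genes, 620 had a fold change below 0 (48.0% of all genes tested). At an unadjusted p below 0.05 in limma, 51 of them were lower and 28 higher, against 607 and 715 of all 12141 genes. The part of gene length in these values was not tested.

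The libraries did not contribute evenly to the difference. Of the 33 members in the filter, control 3 held the highest value in 24 and cKO 4 the lowest in 19. The median deviation of the members from their 8-library mean was 0.07, 0.17, 0.40 and 0.10 on the log2 scale in control 1 to 4, and 0.08, -0.15, -0.30 and -0.37 in cKO 1 to 4. By this median cKO 1 was among the controls and the other cKO libraries were below all of them, while over all genes tested the medians lay between -0.05 and 0.05. The fragments on genes numbered 13978342 to 17867570 in the control and 15494873 to 19583091 in the cKO libraries. The share of fragments on mitochondrial genes was 0.464% in control 1 and 2.20% to 3.74% in the other 7 libraries. No run, day or litter was named in the labels, so no batch could be fitted.

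**Figure D5:**
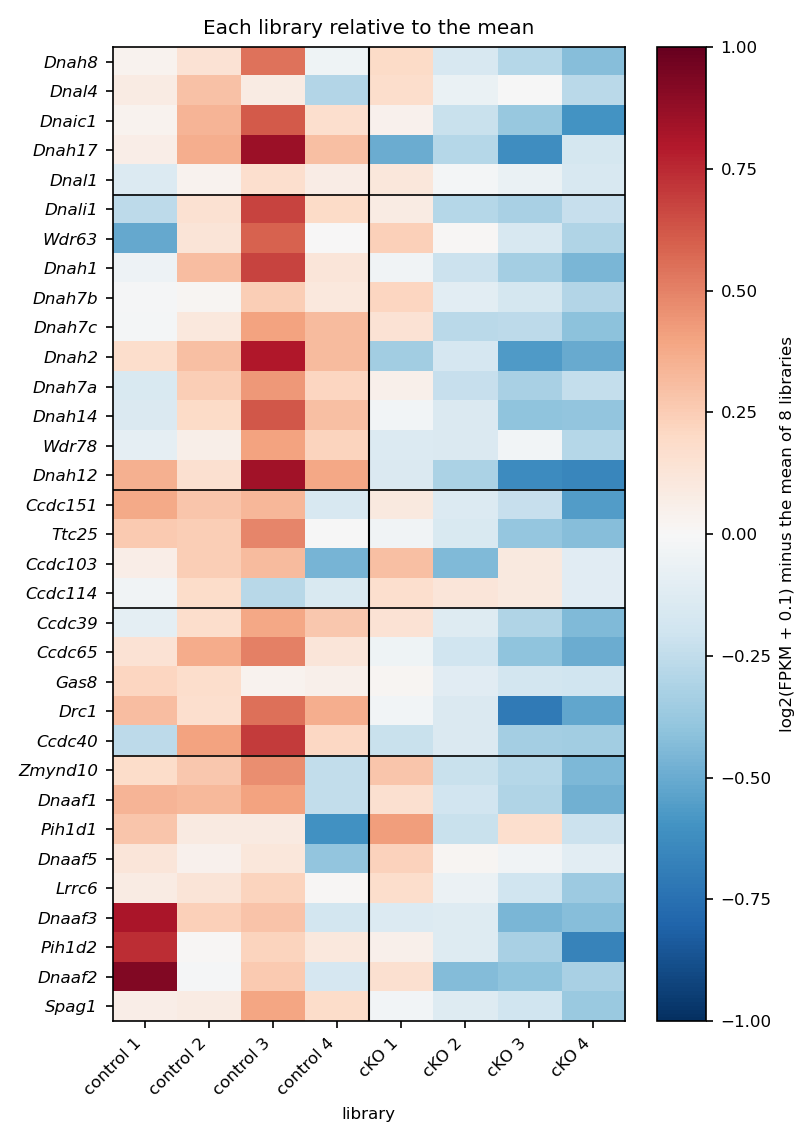
Log2(FPKM + 0.1) of the 33 members in the filter minus the mean of the 8 libraries, by library (columns) and role (blocks between black lines), red above and blue below the mean. Control 3 is the reddest column (median 0.40), cKO 3 and cKO 4 are the bluest (-0.30 and -0.37), and cKO 1 is pale (0.08).

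The markers of other cells give the setting of these values, since in whole testes fewer cells of a type and less RNA per cell cannot be told apart. The paper also sequenced single cells of pooled testes taken slightly later. There spermatocytes made up a smaller share and spermatogonia a larger one in the cKO, which the paper read as loss of spermatocytes. Of 9 pachytene markers tested, 8 had a fold change below 0 (46.4% of all 15937 genes), with a median log2 fold change of -0.29. Of these 8, 3 had an unadjusted p below 0.05 (Ldhc, Piwil1 and Ccna1), where 4.86% of all genes were lower. Hist1h1t was higher at that level, but at only 0.279 ± 0.053 FPKM in the control and 0.667 ± 0.242 FPKM in the cKO testes, with overlapping groups. The summed level of the 9 markers was 860.5 to 1391 FPKM in the control and 670.4 to 1035 FPKM in the cKO libraries, with overlap. Ldhc, the germ cell lactate dehydrogenase, had 523.6 ± 128.2 and 313.0 ± 61.4 FPKM (log2 fold change -0.73, adjusted p = 0.304 over the 15937 genes). The 10 spermatid markers summed to 3.85 to 10.4 FPKM in the control and 5.42 to 7.56 FPKM in the cKO libraries, and 5 of them passed the lower filter. Spaca1, an acrosome membrane gene, held most of that sum with 4.47 ± 3.13 and 4.76 ± 0.863 FPKM.

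Somatic markers stood on the other side of 0, where 8541 of all 15937 genes also lay. At an unadjusted p below 0.05, 6.23% of all genes were higher. All 6 macrophage markers had a fold change above 0, 3 of them with an unadjusted p below 0.05, and their sum of 8.45 to 19.5 FPKM in the control did not overlap the 20.2 to 26.7 FPKM of the cKO libraries. All 6 Leydig cell markers did too (median log2 fold change 0.59, sums of 16.5 to 37.9 and 28.6 to 46.7 FPKM), as did all 5 endothelial markers (median 0.41, sums of 5.82 to 12.8 and 11.8 to 15.1 FPKM). Among Sertoli markers 8 of 9 had a fold change above 0, with a median of 0.16, and among peritubular myoid markers 4 of 5, with a median of 0.27. The 8 spermatogonial markers had a median of 0.06 and the 8 early prophase markers -0.15, but single genes among them differed more. Stra8, which is induced by retinoic acid at meiotic entry, had 10.8 ± 7.05 and 3.40 ± 1.17 FPKM (log2 fold change -1.47, adjusted p = 0.273). Of the early prophase genes, Meiob had 16.3 ± 2.38 and 27.1 ± 8.58 FPKM with every cKO value above the controls (log2 fold change 0.69, adjusted p = 0.273), and Meioc had 68.5 ± 16.3 and 48.7 ± 6.80 FPKM (log2 fold change -0.47, adjusted p = 0.385). Markers of ciliated and duct epithelium, which carry motile cilia next to the testis, summed to 3.38 to 4.93 and 3.26 to 4.52 FPKM with overlap. The part of the cell makeup in the values of the dynein genes was not tested.

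Other genes of the same pathways were read from lists of 5 kinds, in the fit over the 15937 genes. Of 8 further genes listed with the regulatory complex, 8 had a fold change below 0 (46.4% of all genes), with a median of -0.53. At an unadjusted p below 0.05, 7 of them were lower (4.86% of all genes). The summed level of these 8 and Iqca, which was too low to be tested, was 70.2 to 100.4 FPKM in the control. It did not overlap the 44.9 to 63.4 FPKM of the cKO libraries. In 4 of the 8 tested genes the groups were separate with the cKO lower (2.55% of all genes). Iqcd, an IQ-motif subunit, had 17.2 ± 2.76 and 10.1 ± 1.48 FPKM (log2 fold change -0.76, SE 0.15, adjusted p = 0.12). Lrrc23, a leucine-rich repeat protein linked to the radial spokes, had 30.7 ± 7.38 and 16.6 ± 2.21 FPKM (log2 fold change -0.86, SE 0.17, adjusted p = 0.133). Drc7, a coiled-coil subunit, had 7.65 ± 0.988 and 4.44 ± 1.03 FPKM (log2 fold change -0.79, SE 0.16, adjusted p = 0.147). None of the 8 passed the adjusted threshold.

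Of 5 other axonemal dynein and docking genes tested, 2 were lower and 1 was higher at an unadjusted p below 0.05 (4.86% and 6.23% of all genes). Ccdc63, a paralogue of the docking gene Ccdc114, had 0.291, 0.338, 0.279 and 0.224 FPKM in the control and 0.786, 0.511, 0.879 and 0.561 FPKM in the cKO libraries. Its cKO values were all higher than the controls, opposite to Armc4 and at a low level (log2 fold change 1.02, SE 0.22, adjusted p = 0.148). Dnhd1, a dynein heavy chain domain gene, had 11.7 ± 2.54 and 7.23 ± 1.16 FPKM without overlap (log2 fold change -0.68, adjusted p = 0.176), and the light chain gene Tctex1d2 had 26.4 ± 1.84 and 21.1 ± 4.05 FPKM (log2 fold change -0.34, adjusted p = 0.402).

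Further assembly genes were less uniform, with 8 of 11 below 0 (46.4% of all genes) and a median of -0.23. At an unadjusted p below 0.05, 2 were lower (Ttc12 and Lrrc56), as were 4.86% of all genes. Ttc12 had 12.02 ± 1.31 and 9.10 ± 1.55 FPKM and Lrrc56 14.5 ± 2.28 and 11.1 ± 1.15 FPKM. The ATPase Ruvbl1, the highest of them, was at 48.4 ± 6.21 and 49.3 ± 2.35 FPKM. The 14 genes of cytoplasmic dynein-1, the motor that all cells use for transport, had a median of 0.13. Of these 14, 0 were lower and 2 higher at an unadjusted p below 0.05 (4.86% and 6.23% of all genes). The 2 were Dync1i1 with 10.9 ± 2.16 and 15.1 ± 2.41 FPKM and Dynlrb1 with 40.1 ± 4.93 and 49.2 ± 2.43 FPKM. Of 7 regulators of cilium genes tested, 0 had an unadjusted p below 0.05 (11.1% of all genes in either direction). Rfx2, the highest of these and an activator of ciliary genes in spermatocytes, had 24.2 ± 5.23 and 20.9 ± 3.90 FPKM (log2 fold change -0.20, adjusted p = 0.734).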

How the data were processed

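The authors deposited FPKM values of 8 libraries for 54532 genes. Per the labels the reads were set against GRCm38 (mm10). The aligner, the counter and the use of strand are not given in the sources used here. FPKM multiplied by gene length gave whole fragments for 100% of values (tolerance 0.02), so depth was read from them.

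The test was limma 3.58.1 in R 4.3.3 (lmFit, eBayes with trend) on log2(FPKM + 0.1), 4 libraries against 4, adjusted over all genes tested. The study's own test, DESeq2 on counts, was not run. With it the study called more genes at the same thresholds than limma did here, 2 of 12141. The least different replicates of a group, cKO 2 and cKO 3, had a chi-square of 3.938 per gene, where counting noise alone gives about 1. Control 1 had 60, 63.27 and 81.67 against the other controls. The remaining control pairs had 12.09 to 20.48, and the cKO pairs reached 21.06. Each library was used as 1 sample. p-values measure the spread between these mice, and intervals or floors cover counting error only.

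Members, lists, motifs and tests were chosen with earlier results of these data known. Values in all libraries are given for members with an unadjusted p below 0.05, the highest of each role, the 3 copies of Dnah7 and the 3 members on each side of the FPKM filter. From other lists at most 3 genes by p and the highest are named. Marker genes other than these were chosen after their values were seen. Shared windows were counted on GENCODE exons, and sequences are from RefSeq. The procedure was tested on simulated fragments with an equal spread in every library, so that test does not cover the unequal spread of these libraries. Alternatives were other pseudocounts, filters, centring, weights, voom, a replicate block and each library left out. Figures were drawn with matplotlib 3.10.9.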

Additional observations from a re-analysis of the deposited data

Results flagged for a closer look

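Of 68 groups of 4 libraries tested, 3 had a library that stood apart from the other 3 by Dixon's criterion, and chance gives about 1 in 20, or 3.4 of 68. Armc4 was at 3.467 FPKM in control 1, above 2.65 to 2.755 FPKM in the other controls. Dnaaf1 was at 34.46 FPKM in control 4, below 51.21 to 54.2 FPKM in the other controls. Dnaaf2 was at 3.88 FPKM in cKO 1, above 2.531 to 2.745 FPKM in the other cKO libraries. The cause was not tested.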

How the results depend on the processing

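None of the 28 members described in all libraries changed direction under the alternatives tried, and of 442 recalculations of their fold changes, 423 kept their side of the adjusted threshold and 19 passed it, 17 of these with weighted libraries. Weighted libraries gave 15 of 33 members at an adjusted p below 0.05, where the test without weights gave 0. Without cKO 4 the members at an unadjusted p below 0.05 numbered 11, and over the libraries left out in turn they ran from 11 to 25 (25 without cKO 1, where 6.579% of all genes were lower), against 19. The members whose groups did not overlap ran from 8 to 18, with 16 without control 1 and 18 without cKO 1. The median log2 fold change of all members tested ran from -0.295 to -0.486 in the same series. With the filter at 0.1 FPKM, or with no filter, the outer arm median was -0.1169 on the log2 scale, because 4 genes at a fraction of 1 FPKM entered. With the replicate number as a replicate block, 18 of 33 members were lower at an unadjusted p below 0.05, as were 6.812% of all genes (5.0% without the block), and 0 at an adjusted p. Same-numbered libraries deviated together at r = 0.0757 to 0.406, with 1 of 4 pairs below 0.1, and 5 of 8 libraries correlated best with their own number, and the mice were treated as unpaired. Alternatives that combine the lower filter with other settings were added after the data were seen. Members whose fold change lay near 0 (Wdr63, Dnal4, Ccdc103, Pih1d1, Dnaaf5, Dnah11) changed sign when single libraries were left out, and Dnaaf5, Dnah11 and Dnah5 with weighted libraries. In Dnah5, Dnah9 and Dnah11, with 18 to 69 fragments and standard errors of 0.23 to 0.31, a difference of the members' median size was not detectable at this depth.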
